A study of Homo sapiens with 12 samples.

Results

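The 9 genes described here are TFF1, TFF2, TFF3, AGR2, SPDEF, XBP1, MUC1, CREB3L1 and SPINK4, which code for trefoil peptides and other parts of a mucous secretory program. They were taken with all probe sets that the array's annotation assigns to them, 18 in number, and are 9 of the 13225 genes that passed the filter on low signal. The genes were selected on their log2 levels in these same arrays, where they were higher after knockdown, so their differences between groups are given as a description, without p-values, and nothing is read from how many passed a threshold. RNA was measured in MDA-MB-231, an established human breast cancer cell line of the triple-negative type, on Affymetrix U133 Plus 2.0 arrays. Cells received the siRNA mix labelled siYAP/TAZ#1 (mix 1), the mix labelled siYAP/TAZ#2 (mix 2) or a control siRNA, each at 33 nM with a lipid reagent, in the same serum-containing medium without antibiotics. Each group had 4 arrays, from replicates A to D that were plated, transfected and harvested in parallel. Transfection was on day 2 and harvest on day 4. Each mix lowers 2 targets at once, YAP (gene YAP1) and TAZ (gene WWTR1), so the parts played by each target cannot be told apart. Both comparisons with control use the same 4 control arrays. Levels are log2 values from RMA, a difference of 1 is 2-fold, and levels of different probe sets are not compared with each other.

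YAP and TAZ are transcriptional coactivators that the Hippo pathway restrains. They bind DNA through TEAD factors and are best known for driving growth genes. Trefoil peptides are small, disulfide-bonded proteins that mucus-secreting epithelia release together with mucins, and TFF1 is also a classic estrogen-induced gene of luminal breast cancer. AGR2 is a protein disulfide isomerase of the endoplasmic reticulum that helps fold secreted cysteine-rich proteins. SPDEF is an ETS factor that drives goblet cell maturation, while XBP1 and CREB3L1 are factors tied to endoplasmic reticulum membrane signalling that enlarge secretory capacity. MUC1 is a membrane mucin of luminal epithelia, and SPINK4 is a Kazal-type protease inhibitor known from intestinal goblet cells.

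The promoter windows of 5 genes are shown because they hold, or lack, the core letters of the TEAD site through which YAP and TAZ reach DNA. RefSeq entries on GRCh38.p14 covered 6 of the 9 genes in 8 windows of 300 bases, from 250 bases before the annotated start to 50 bases after it. TFF1, TFF2 and TFF3 had no entry. Capitals mark matches to the motifs searched on both strands. These were the TEAD core GGAATG, the AP-1 site TGANTCA, the core ACGTG found in sites of stress factors, the TATA box TATAAA, the forkhead core TGTTTNC and CCAAT. The AGR2 window lies on the minus strand at chr7:16804950-16805249 and the SPINK4 window on the plus strand at chr9:33239917-33240216. The SPDEF window is on the minus strand at chr6:34556280-34556579, the MUC1 window on the minus strand at chr1:155192866-155193165 and the CREB3L1 window on the plus strand at chr11:46294909-46295208.
AGR2: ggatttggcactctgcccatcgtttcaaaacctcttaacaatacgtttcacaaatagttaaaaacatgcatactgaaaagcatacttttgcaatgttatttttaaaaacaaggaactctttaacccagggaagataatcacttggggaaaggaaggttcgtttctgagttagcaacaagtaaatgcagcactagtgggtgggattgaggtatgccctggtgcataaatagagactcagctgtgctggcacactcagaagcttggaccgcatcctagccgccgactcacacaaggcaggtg
SPINK4: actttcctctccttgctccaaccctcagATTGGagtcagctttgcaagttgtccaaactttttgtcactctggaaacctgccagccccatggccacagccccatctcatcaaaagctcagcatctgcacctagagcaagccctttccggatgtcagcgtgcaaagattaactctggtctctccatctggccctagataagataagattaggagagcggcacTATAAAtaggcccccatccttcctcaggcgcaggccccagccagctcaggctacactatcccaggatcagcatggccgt
SPDEF: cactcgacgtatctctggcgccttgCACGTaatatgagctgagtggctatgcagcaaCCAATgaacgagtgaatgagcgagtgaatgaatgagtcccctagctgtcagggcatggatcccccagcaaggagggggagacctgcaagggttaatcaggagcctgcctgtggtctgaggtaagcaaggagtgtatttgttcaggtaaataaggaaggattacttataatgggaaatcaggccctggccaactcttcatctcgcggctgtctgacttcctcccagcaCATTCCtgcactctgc
MUC1: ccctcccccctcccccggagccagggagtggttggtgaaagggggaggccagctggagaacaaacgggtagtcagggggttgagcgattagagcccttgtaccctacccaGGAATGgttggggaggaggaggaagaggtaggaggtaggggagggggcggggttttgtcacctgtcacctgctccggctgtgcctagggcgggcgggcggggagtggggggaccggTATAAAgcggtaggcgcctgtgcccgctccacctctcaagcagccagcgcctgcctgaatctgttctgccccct
CREB3L1: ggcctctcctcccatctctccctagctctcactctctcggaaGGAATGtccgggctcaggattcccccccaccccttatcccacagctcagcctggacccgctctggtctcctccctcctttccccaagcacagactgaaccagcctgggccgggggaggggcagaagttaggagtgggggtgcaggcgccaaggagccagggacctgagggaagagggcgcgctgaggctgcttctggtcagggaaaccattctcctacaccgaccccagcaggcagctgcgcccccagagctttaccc

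The TEAD core was found in the windows of CREB3L1, MUC1 and SPDEF, that is in 3 of 6 genes. By windows this is 4 of 8, with the MUC1 windows overlapping, against 14.0% of 35116 RefSeq windows. With the annotated start as position 0, its first base lay at -208 for CREB3L1, at -140 in the MUC1 window shown and at 34 for SPDEF. AGR2 held none of the 6 motifs in this window, and its GC content was 43.7% against a median of 58.7% over all windows. SPINK4 held a TATA box at -29 and CCAAT on the opposite strand at -222. Among all windows 11.5% held the TATA box and 34.6% held CCAAT. The core ACGTG, present in 21.4% of all windows, was found for SPDEF and in the upstream window of XBP1 (minus strand, chr22:28800520-28800819). No window of the 6 genes held the AP-1 site or the forkhead core, which 7.71% and 18.0% of all windows held. Matches of this length are a description of letters and do not show binding.

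The labels were checked against the targeted genes. YAP1 had 12.4% of its control signal left with mix 1 and 11.9% with mix 2, with limma adjusted p of 6.95e-11 and 4.56e-11. WWTR1 had 19.8% left with mix 1 and 18.3% with mix 2 (limma adjusted p 3.6e-11 and 1.76e-11). Of 9 genes listed as markers of the line, vimentin (VIM), a mesenchymal protein it is known for, averaged 14.41 with mix 1, 14.37 with mix 2 and 14.29 in control. The progesterone receptor gene PGR lay below the filter value of 5.46. The estrogen receptor gene ESR1 passed the filter but lay close to it, at 6.26, 6.19 and 6.31. The E-cadherin gene CDH1, silenced in this line, lay below the filter value too, at 4.17, 4.17 and 3.98. Median array levels spanned 5.71 to 5.78 with mix 1, 5.73 to 5.74 with mix 2 and 5.69 to 5.75 in control. Other markers of the line differed from control. EPCAM differed by -0.38 with mix 1 and 0.93 with mix 2 (limma fit without the filter, adjusted p 0.00992 and 3.09e-06). KRT8 differed by 0.51 and 0.40 and CD44 by -0.26 and -0.29. KRT18 was at 12.98, 12.91 and 12.88 and ERBB2 at 7.75, 7.95 and 7.76. The ACTB signal difference between 3' and 5' probe sets spanned 1.61 to 2.24 with mix 1, 1.36 to 1.83 with mix 2 and 1.38 to 1.99 in control. The GAPDH signal difference between 3' and 5' probe sets, another sign of RNA quality, spanned 0.33 to 0.51, 0.33 to 0.42 and 0.34 to 0.45.

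Signals of some markers of other cell types were higher after knockdown together with the 9 genes. Differences, calls and p-values of the markers come from a limma fit without the filter. The summed level of 6 measured leukocyte markers was 10.04 to 10.25 with mix 1, 10.27 to 10.36 with mix 2 and 8.22 to 8.33 in control. Lysozyme (LYZ), HLA-DRA and CD14 were higher, LYZ and CD14 from control means of 4.96 and 5.15, below the filter value. CD3E (-0.10 and -0.11) and ITGAM (-0.02 and -0.19) were not called. The defining leukocyte gene PTPRC stayed below the filter value, at 3.80, 4.47 and 4.04. The 5 endothelial markers summed to 8.91 to 9.10, 8.42 to 8.62 and 7.63 to 7.92. PECAM1 was higher by 2.08 and 1.34 (limma adjusted p 5.53e-11 and 5.73e-09). KDR, with means below the filter value in all groups, was lower with mix 1 (-0.74). The defining endothelial gene CDH5 stayed at 3.92, 3.94 and 3.97, below the filter value. The 5 fibroblast markers summed to 9.57 to 9.97, 9.23 to 9.40 and 8.14 to 8.42. COL1A1 was higher by 2.30 and 1.48 and PDGFRB by 0.66 and 0.88. LUM was higher by 1.07 and 2.22, but its means lay below the filter value in all groups. THY1 was lower with mix 1 (-0.34), and DCN was at 5.38, 5.53 and 5.47. The part of other cells in the results was not tested. Since RNA came from whole cultures, a changed number of cells of a type and a changed amount of RNA per cell cannot be told apart.

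All 3 trefoil peptide genes had higher levels with both mixes, by 2.88 to 4.42 on the log2 scale. TFF1 read 11.40, 11.20, 11.35 and 11.26 with mix 1 and 11.02, 10.99, 11.10 and 11.03 with mix 2, against 7.13, 6.78, 6.88 and 6.74 in control. Every knockdown array lay far above the control arrays, and the mix 1 arrays lay above the mix 2 arrays. The TFF1 difference from control was 4.42 with mix 1 and 4.15 with mix 2 (SE 0.08 each), or 21.4-fold and 17.8-fold. These were rank 3 and rank 13 of all 13225 genes by signed difference.

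TFF2, the trefoil peptide of gastric mucous neck cells, read 11.11, 11.03, 11.08 and 10.95 with mix 1 and 11.31, 11.25, 11.39 and 11.15 with mix 2, against 8.19, 8.30, 8.13 and 8.04 in control. Its groups did not overlap, with mix 2 highest. The difference was 2.88 with mix 1 and 3.11 with mix 2 (SE 0.07 each), or 7.35-fold and 8.63-fold. TFF3, the trefoil peptide of intestinal goblet cells, read 10.45, 10.45, 10.51 and 10.25 with mix 1 and 10.53, 10.54, 10.58 and 10.50 with mix 2, against 6.73, 6.74, 6.70 and 6.63 in control. The 2 mixes overlapped in TFF3 and both lay above all control arrays. The difference was 3.71 with mix 1 and 3.84 with mix 2 (SE 0.06 each), or 13.1-fold and 14.3-fold.

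**Figure D1:**
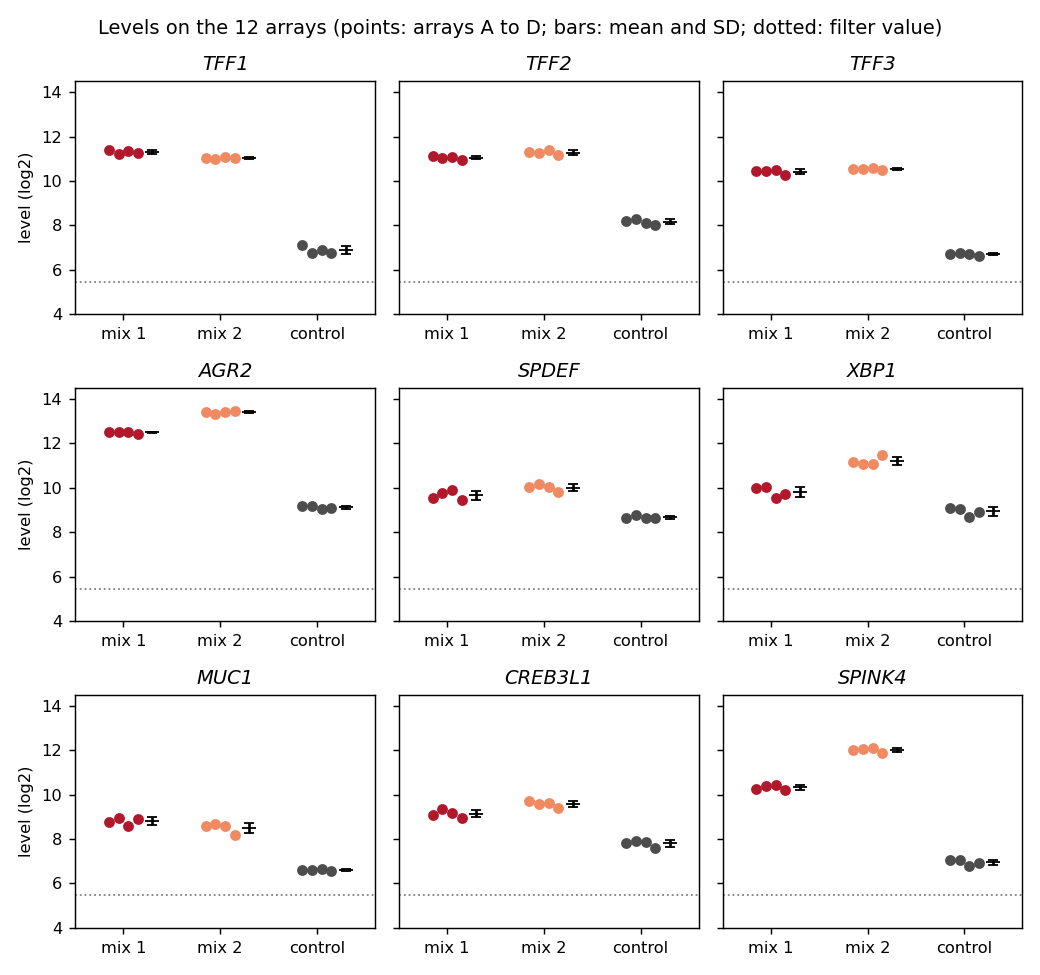
Levels of the 9 genes on the 12 arrays (vertical axis, log2; each panel is 1 gene and levels are not compared between panels), with mix 1, mix 2 and control from left to right; points are arrays A to D, bars the mean and SD, and the dotted line the filter value of 5.46. In all 9 panels the 8 knockdown arrays lie above the 4 control arrays, and AGR2, XBP1, TFF2, CREB3L1 and SPINK4 have the mix 2 arrays above the mix 1 arrays.

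AGR2, the disulfide isomerase, had 12.51, 12.50, 12.52 and 12.44 with mix 1 and 13.42, 13.33, 13.41 and 13.44 with mix 2, against 9.17, 9.19, 9.03 and 9.11 in control. The 3 groups were separate, with little spread within each. The AGR2 difference from control was 3.37 with mix 1 and 4.28 with mix 2 (SE 0.05 each), or 10.3-fold and 19.4-fold. A second AGR2 probe set, 228969_at, had the same order of groups: 8.20, 7.86, 7.88 and 7.92 with mix 1 and 8.76, 9.10, 8.92 and 8.85 with mix 2, against 4.85, 5.28, 5.20 and 5.65 in control. Its differences were 2.72 and 3.66 (SE 0.14 each), with a control mean below the filter value.

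SPINK4, the Kazal-type inhibitor, was the gene with the highest difference of all 13225 genes with mix 2 and ranked 32 with mix 1. It read 10.27, 10.41, 10.44 and 10.22 with mix 1 and 12.03, 12.05, 12.11 and 11.86 with mix 2, against 7.05, 7.04, 6.80 and 6.94 in control. No array of 1 group overlapped another group. The difference was 3.38 with mix 1 and 5.06 with mix 2 (SE 0.08 each), or 10.4-fold and 33.2-fold.

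The 3 transcription factor genes differed from control by 0.88 to 2.26, less than the trefoil genes, AGR2 and SPINK4 with either mix. XBP1, the factor that is activated by splicing when the endoplasmic reticulum is under load, read 9.99, 10.02, 9.53 and 9.71 with mix 1 and 11.16, 11.09, 11.08 and 11.46 with mix 2, against 9.11, 9.04, 8.67 and 8.92 in control. The groups did not overlap. The difference was 0.88 with mix 1 and 2.26 with mix 2 (SE 0.12 each), or 1.84-fold and 4.80-fold. These arrays read the level of the gene and not the splice form. The other XBP1 probe set, 242021_at, lay near the filter value and differed by 0.08 and 0.20, with groups that overlapped.

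CREB3L1, a membrane-bound factor released by proteolysis in the Golgi, read 9.10, 9.35, 9.18 and 8.94 with mix 1 and 9.71, 9.58, 9.63 and 9.39 with mix 2, against 7.82, 7.93, 7.86 and 7.60 in control. All 3 groups were separate. The CREB3L1 difference was 1.34 with mix 1 and 1.77 with mix 2 (SE 0.10 each). Its other probe set, 213498_at, lay near the filter value and differed by -0.04 and 0.21.

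SPDEF, the goblet cell factor, read 9.55, 9.75, 9.90 and 9.43 with mix 1 and 10.02, 10.19, 10.03 and 9.80 with mix 2, against 8.62, 8.77, 8.65 and 8.65 in control. Both mixes lay above control, and they overlapped each other. The difference was 0.98 with mix 1 and 1.34 with mix 2 (SE 0.10 each). All 5 SPDEF probe sets have names ending in _x_at, a class that can also bind related transcripts. Probe sets 214404_x_at (0.92 and 1.29) and 213441_x_at (0.78 and 0.85) gave differences of like size, and 214403_x_at (0.16 and 0.12) and 213442_x_at (0.11 and 0.17) gave small ones.

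MUC1, the membrane mucin, read 8.76, 8.95, 8.59 and 8.92 with mix 1 and 8.59, 8.67, 8.58 and 8.19 with mix 2, against 6.59, 6.59, 6.65 and 6.56 in control. The knockdown arrays lay well above control, and the mixes overlapped. The difference was 2.21 with mix 1 and 1.91 with mix 2 (SE 0.10 each). Probe set 207847_s_at gave 2.14 and 1.56 from a control mean below the filter value. Probe set 211695_x_at, whose mean missed the filter, gave 0.74 and 0.52, and its mix 2 arrays overlapped control.

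**Figure D2:**
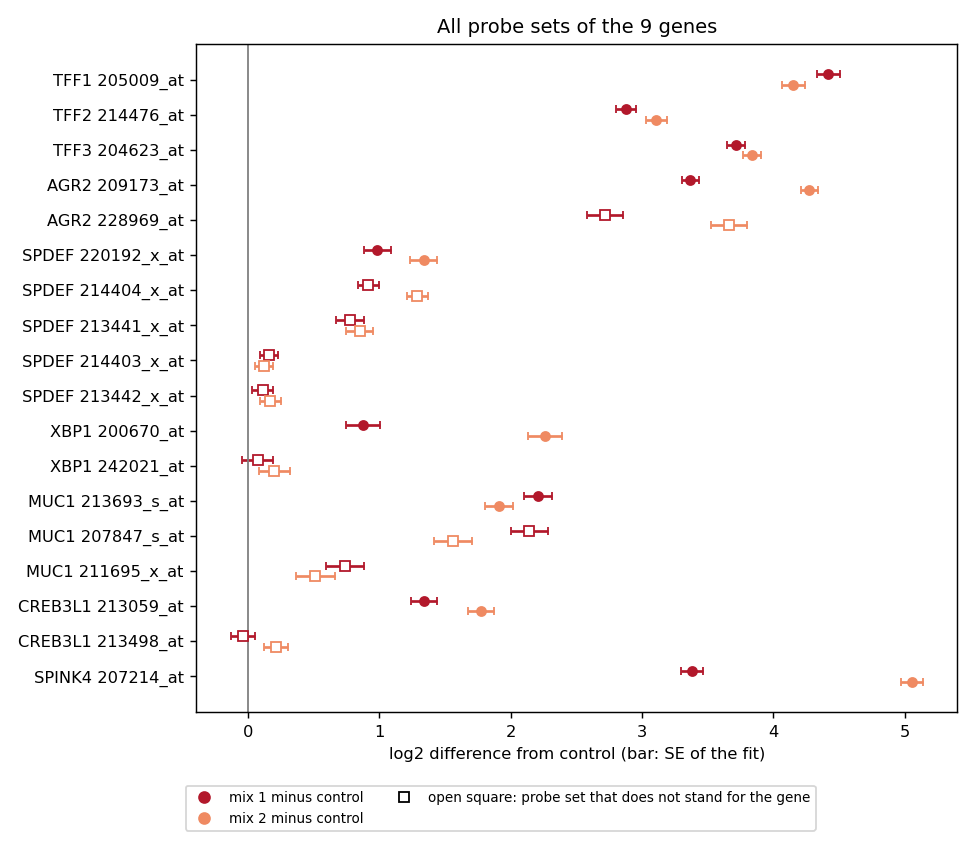
Difference from control (horizontal axis, log2) of all 18 probe sets of the 9 genes, with mix 1 above mix 2 in each line; bars are the SE of the fit, and open squares are probe sets that do not stand for their gene. As a description of genes chosen as higher, 15 of the 18 probe sets lie above the control range with mix 1 and 14 with mix 2. The rest overlap control. Counted by gene, 32.3% and 33.8% of all 13225 genes lie above in this way, and no share over all probe sets was computed. SPDEF 214403_x_at is counted as above at 0.16 and 0.12.

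Given only as a description, since the choice of the genes fixed the outcome, 9 of 9 were past the limma call rule (adjusted p below 0.05) as higher with mix 1, where 34.8% of all genes were, and 9 of 9 with mix 2, where 36.7% were. Of the 9 genes 7 were called and at least 2-fold higher with mix 1, against 8.1% of all genes, and 9 with mix 2, against 9.08%. With both mixes all 9 genes had every knockdown array above every control array, as 32.3% of all genes did with mix 1 and 33.8% with mix 2. Their median difference was 2.88 with mix 1 and 3.11 with mix 2, while the median over all genes was 0.005 and 0.03.

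**Figure D3:**
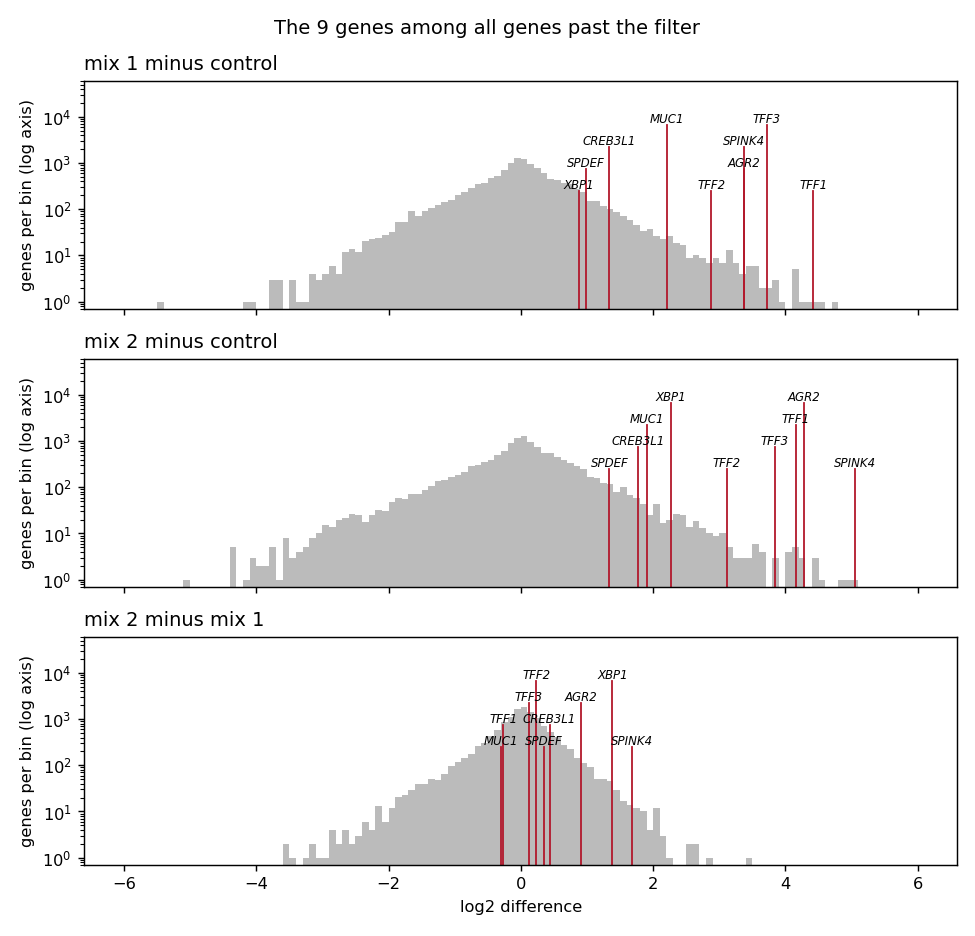
Differences of the 13225 genes past the filter (horizontal axis, log2; vertical axis, genes per bin on a log scale) for mix 1 minus control, mix 2 minus control and mix 2 minus mix 1, with red lines at the 9 genes. SPINK4 at 5.06 is at the far right of the mix 2 panel and XBP1 at 0.88 is the lowest of the 9 genes in the mix 1 panel; in the bottom panel the genes run from MUC1 at -0.30 to SPINK4 at 1.68.

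Levels of most of the 9 genes also differed between the mixes. Set directly against mix 1, mix 2 gave higher levels of SPINK4 by 1.68, of XBP1 by 1.39 and of AGR2 by 0.91, which are 3.20-fold, 2.61-fold and 1.88-fold. Smaller differences in the same direction were seen for CREB3L1 (0.43), SPDEF (0.35) and TFF2 (0.23). TFF1 and MUC1 ran the other way, at -0.27 and -0.30, and TFF3 differed by 0.12. As a description, 6 genes were past the limma call rule as higher with mix 2, 2 as lower and TFF3 as neither, beside 28.7% of all genes higher and 25% lower. The MUC1 call was lost without mix 1 replicate B (-0.25), without mix 1 replicate D (-0.26) or without mix 2 replicate D (-0.19). Mix 2 arrays all lay above mix 1 arrays in 5 genes, TFF2, AGR2, XBP1, CREB3L1 and SPINK4, and all below in TFF1. Over all genes 24.3% lay above and 21.7% below in this way. YAP1 and WWTR1 themselves did not pass the threshold between the mixes (limma differences -0.06 and -0.12, adjusted p 0.73 and 0.344).

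Profiles of the 9 genes were compared after each gene's 12 arrays were set against its own control mean. The root mean square difference between 2 such profiles was smallest for TFF3 and AGR2, at 0.33, and for SPDEF and CREB3L1, at 0.34. XBP1 (0.45) and MUC1 (0.53) also lay nearest to CREB3L1. TFF1 (0.46) and TFF2 (0.64) lay nearest to TFF3, and SPINK4 lay nearest to AGR2 (0.46). The pair farthest apart was TFF1 and SPDEF, at 2.57.

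The same measure over all filtered genes gave the profiles most like TFF1, AGR2 and SPINK4 over the 12 arrays. Several of them had a control mean below the filter value of 5.46, from 4.02 for VAC14-AS1 to 5.33 for CST1, with SERPIND1, LYZ, SPOCK3, CGNL1 and HPGD between, so that their differences and their order rest on control signals near background. For TFF1 these were PRSS2, a trypsinogen gene (0.13), CYP1B1, a cytochrome of estrogen and xenobiotic metabolism (0.23), CGNL1, a junction protein gene (0.24), LYZ, the lysozyme gene (0.25), and SPOCK3, a testican gene (0.33). The PRSS2 probe set 205402_x_at can bind near-identical trypsinogen transcripts, so its gene is uncertain. For AGR2 they were the salivary cystatin genes CST4 (0.16) and CST1 (0.19), the prostaglandin dehydrogenase gene HPGD (0.17), the heparin cofactor gene SERPIND1 (0.20) and TFF3 (0.33). For SPINK4 they were VAC14-AS1, an antisense RNA (0.26), the integrin gene ITGA10 (0.32), CST1 (0.40), AGR2 (0.46) and CST4 (0.55). CST1 differed from control by 3.28 with mix 1 and 4.43 with mix 2, and CST4 by 3.46 and 4.12. CST1, CST2 and CST4 are close paralogs whose probe sets can share transcripts.

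Genes with related roles were taken from 10 lists of 219 genes that hold none of the 9. Of these, 155 passed the filter. With mix 1, 76 were called higher and 29 lower (49% and 18.7%, against 34.8% and 32.3% of all genes). With mix 2, 72 were higher and 32 lower (46.5% and 20.6%, against 36.7% and 31.9%). The median difference over the lists was 0.17 with mix 1 and 0.13 with mix 2. These shares of all genes are also the ones to set beside the counts of each single list below. For the genes of these lists each pair of values is the log2 difference from control with mix 1, then with mix 2, from the limma fit.

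Of the mucins other than MUC1, 7 passed the filter and none of these was called by limma in either comparison (median 0.06 and 0.03), and 0 had an unadjusted p below 0.05 with either mix. MUC5B, a gel-forming airway mucin, differed by 0.10 and 0.13 (limma adjusted p 0.408 with mix 1). Below the filter, values came from a limma fit of each gene's brightest probe set without the filter. There the membrane mucin MUC15 was higher by 1.11 and 0.44 (limma adjusted p 6.18e-08 and 0.000707), with means of 4.52, 3.85 and 3.40. MUC16 was higher by 0.34 with mix 1 (limma adjusted p 0.0243). For the gastric mucin MUC5AC the probe sets disagreed: 217182_at, which stood for the gene, differed by 0.06 and -0.16, while 214385_s_at differed by 0.42 and 0.71 and 214303_x_at by 0.24 and 0.51. Of 11 mucin probe sets with a mean above the filter value, 1 was called with mix 1 and 2 with mix 2 in the limma fit to all probe sets. Group means of these 3 MUC5AC probe sets lay between 5.79 and 6.52, close to the filter value.

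Among mucous and glandular secretory products, 5 of 14 genes were higher and 1 lower with each mix (medians 0.05 and 0.14), and 4 were higher with both. The share higher, 35.7% with each mix, was near that of all genes (34.8% and 36.7%). The share lower was 7.14%, against 32.3% and 31.9% of all genes. AQP3, a water and glycerol channel, differed by 3.14 and 2.69 (limma adjusted p 1.61e-13 with mix 1). TSPAN8, a tetraspanin of gastrointestinal epithelia, differed by 1.92 and 2.32. The calcium-binding protein gene S100P differed by 1.45 and 2.53, and FCGBP, a mucus component, by 0.32 and 0.52 from a control mean below the filter value. GKN2, a gastric peptide that pairs with TFF1, went the other way, at -1.91 and -0.50. Its mix 1 mean of 4.65 lay below the filter value, so the size of that difference rests on signal near background.

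Kazal inhibitors, the family of SPINK4, and cystatins, another family of protease inhibitors, were taken as 1 list. It had 5 of 6 genes higher with mix 1 and 6 of 6 with mix 2 (medians 2.25 and 2.68). As shares these are 83.3% and 100%, against 34.8% and 36.7% of all genes. SPINK13 was the only Kazal gene past the filter, at 0.65 and 0.80 from a control mean of 5.05, below the filter value. The others were cystatins, so the counts say little about the Kazal family. Of the 16 genes listed only 12 had a probe set and 6 passed the filter, 4 of them with a control mean above it, and without the filter the medians were 0.17 and 0.30. Besides CST1 and CST4, CST2 differed by 2.74 and 3.67 and the widely expressed cystatin C gene CST3 by 1.76 and 1.69 (limma adjusted p 8.32e-11 with mix 1). Of the 2 other CST3 probe sets, 2 were called higher with mix 1 and 0 were called with mix 2.

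Genes of the protein disulfide isomerase family, to which AGR2 belongs, were called higher in 10 of 18 and lower in 5 with mix 1 (55.6% and 27.8%). With mix 2, 11 were higher and 3 lower (61.1% and 16.7%). The medians were 0.22 and 0.40, and 8 genes were higher with both mixes. TMX4 differed by 1.17 and 0.98 and PDIA6 by 0.64 and 0.54 (limma adjusted p 5.13e-10 and 9.89e-08 with mix 1). TMX1 was lower at -0.26 and -2.46, and TMX2 at -0.30 and -0.82. TXNDC12, an AGR2 relative, had opposite signs, -1.65 with mix 1 and 0.41 with mix 2. The closest relative, AGR3, stayed below the filter value in all groups.

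Endoplasmic reticulum genes of the kind XBP1 drives were called in both directions. With mix 1, 14 of 31 were higher and 7 lower (median 0.12), or 45.2% and 22.6%, against 34.8% and 32.3% of all genes. With mix 2, 11 were higher and 12 lower (median -0.02), or 35.5% and 38.7%, against 36.7% and 31.9% of all genes. The part of XBP1 in these differences was not tested. The co-chaperone gene DNAJB9, a classic XBP1 target, differed by 1.42 and 1.54 (limma adjusted p 2.09e-11 with mix 1). HERPUD1, of endoplasmic reticulum degradation, differed by 1.03 and 0.99, but its probe set that is not of the _s_at type gave 0.07 and -0.02. SSR3 (-1.65 and -0.60) and SRPRB (-0.79 and -1.36) were lower. The chaperone gene HSPA5 differed by -0.10, which was not called, and 0.46, and its other probe set was called in the opposite direction in each comparison. DERL1, of retrotranslocation, differed by 0.49 and -1.58, and the chaperone HYOU1 by 0.58 and -0.26, each called with both mixes and in opposite directions.

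Stress sensors and the relatives of CREB3L1 were called higher in 9 of 13 genes and lower in 1 with mix 1 (69.2% and 7.69%, median 0.50). With mix 2, 5 were higher and 5 lower (38.5% each, median 0.07). CREB3L4, a factor of the same family, differed by 1.21 and 1.75 (limma adjusted p 1.15e-07 with mix 1), and ATF6, a Golgi-processed sensor, by 1.13 and 1.01. DDIT3, the stress-induced CHOP gene, was lower at -0.20 and -0.66; with mix 1 it was not called without mix 1 replicate B (-0.16) or D (-0.17). ERN1, the kinase that splices XBP1 RNA, differed by 0.96 and -0.42. The proteases that release ATF6 and CREB3-type factors, MBTPS1 and MBTPS2, differed by 1.07 and 0.12, the second value not called, and by 0.24 and -2.73. In mix 2 minus mix 1, MBTPS2 differed by -2.97 (limma adjusted p 1.67e-12) and ERN1 by -1.38 (adjusted p 5.59e-09).

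Genes of COPII vesicles and cargo receptors, which carry folded proteins out of the endoplasmic reticulum, were higher in 11 of 20 and lower in 3 with mix 1 (55% and 15%). With mix 2, 10 were higher and 3 lower (50% and 15%). The medians were 0.43 and 0.30. The cargo receptor genes MIA2 (1.45 and 1.16) and MIA3 (0.83 and 0.90) and the coat gene SEC23A (0.52 and 0.83) were among the 8 higher with both (limma adjusted p of MIA2 2.37e-09 with mix 1).

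Enzymes of mucin O-glycosylation were higher in 11 of 20 and lower in 5 with mix 1 (55% and 25%). With mix 2, 14 were higher and 2 lower (70% and 10%). The medians were 0.50 and 0.81, or 0.06 and 0.21 without the filter. The transferases that start the chains included GALNT5, at 1.38 and 2.68 (limma adjusted p 4.01e-10 with mix 1), and GALNT10, at 1.20 and 1.70, while GALNT14 was lower at -1.19 and -0.91. ST6GALNAC2, which adds sialic acid, differed by 1.57 and 1.24 from a control mean of 5.12, below the filter value, so it passed the filter through the knockdown arrays. C1GALT1, which makes the core 1 structure, was lower with mix 1 at -0.88 and higher with mix 2 at 0.43, and the branching enzyme gene GCNT1 likewise, at -0.53 and 1.16.

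Luminal and secretory transcription factors split evenly, with 5 of 14 higher and 5 lower with mix 1 and 5 higher and 4 lower with mix 2 (medians -0.04 and 0.01). The shares, 35.7% and 35.7% with mix 1 and 35.7% and 28.6% with mix 2, were near those of all genes. EHF, an ETS factor like SPDEF, differed by 0.94 and 1.03, FOXA2 by 0.71 and 0.54 and the ETS factor ELF3 by 0.45 and 1.21 (limma adjusted p of EHF 7.22e-10 with mix 1). KLF5 (-1.34 and -1.15) and MYB (-1.12 and -1.56) were lower, MYB with means below the filter value after both mixes. GATA3, a luminal lineage factor, was lower with mix 1 at -0.47 and was not called with mix 2, at 0.07. ESR1, through which estrogen induces TFF1, differed by -0.05 and -0.13 and was not called in either comparison (limma adjusted p 0.631 with mix 1). Its means of 6.26, 6.19 and 6.31 lay close to the filter value, so these values do not show that ESR1 is expressed here. FOXA1 lay below the filter. Of 12 estrogen-responsive luminal genes 6 were higher and 2 lower with mix 1 (50% and 16.7%, median 0.27), and 5 higher and 2 lower with mix 2 (41.7% and 16.7%, median 0.06). They included CA12, a carbonic anhydrase gene, at 3.80 and 3.41, IGFBP4 at 2.00 and 1.48, TPD52L1 at 0.70 and 1.41 and, in the other direction, MYBL1 at -2.14 and -2.41.

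**Figure D4:**
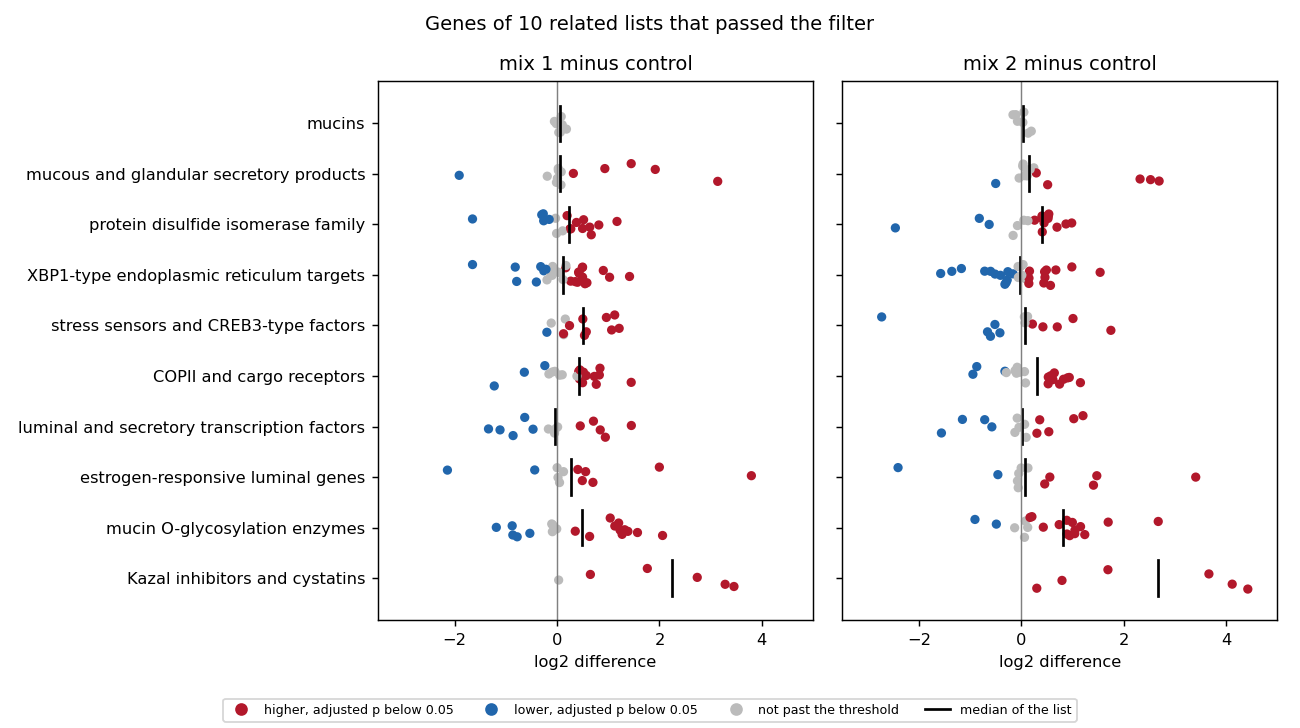
Differences from control (horizontal axis, log2) of the genes past the filter in the 10 related lists (vertical axis), with mix 1 on the left and mix 2 on the right; each point is a gene, red called higher, blue called lower and grey not past the threshold, and the black bar is the list's median. The 6 Kazal inhibitor and cystatin genes have medians of 2.25 and 2.68, the 7 mucins past the filter hold no called gene, and the 31 endoplasmic reticulum targets spread to both sides of 0.

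The 3 trefoil genes lie side by side on chromosome 21 in the order TFF3, TFF2, TFF1, with 0 protein-coding genes between them in the RefSeq table. Beside TFF3 lies ABCG1, a cholesterol exporter gene, which differed by 1.51 and 2.00 (limma adjusted p 6.93e-08 and 2.57e-09) from a control mean of 4.93, below the filter value. On the side of TFF1, TMPRSS3 was not called (0.10 and 0.25), and UMODL1 and UBASH3A, the outer neighbours, lay below the filter.

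Over all 9 genes, the nearest 2 protein-coding genes on each side made 28 neighbours, of which 22 passed the filter. With mix 1, 10 were higher and 5 lower, and with mix 2, 12 were higher and 4 lower (45.5% and 54.5% higher, against 34.8% and 36.7% of all genes). Their medians were 0.13 and 0.26. Next to AGR2, the tetraspanin gene TSPAN13 differed by 1.97 and 2.69 (limma adjusted p 7.28e-12 with mix 1), while AGR3 on the other side lay below the filter. The aryl hydrocarbon receptor gene AHR, beyond AGR3, differed by 1.27 and 0.83. Near CREB3L1, PHF21A, a histone-binding protein gene, differed by 1.64 and 1.13. It lies beyond LOC124902669, which had no probe set. Next to SPINK4, B4GALT1, a galactosyltransferase gene, differed by 1.85 and 0.54 and the chaperone cofactor gene BAG1 by 0.70 and 1.17. Next to MUC1, THBS3 differed by 0.97 and 1.23, and KRTCAP2, TRIM46 and MTX1 were not called. Next to SPDEF the values were 0.76 and 0.43 for ILRUN and -1.47 and -0.38 for the splicing gene SNRPC, one gene further on. Beside XBP1, ZNRF3 was lower at -0.30 and -0.93, CCDC117 at -0.13, which was not called, and -1.03, and HSCB was not called.

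**Figure D5:**
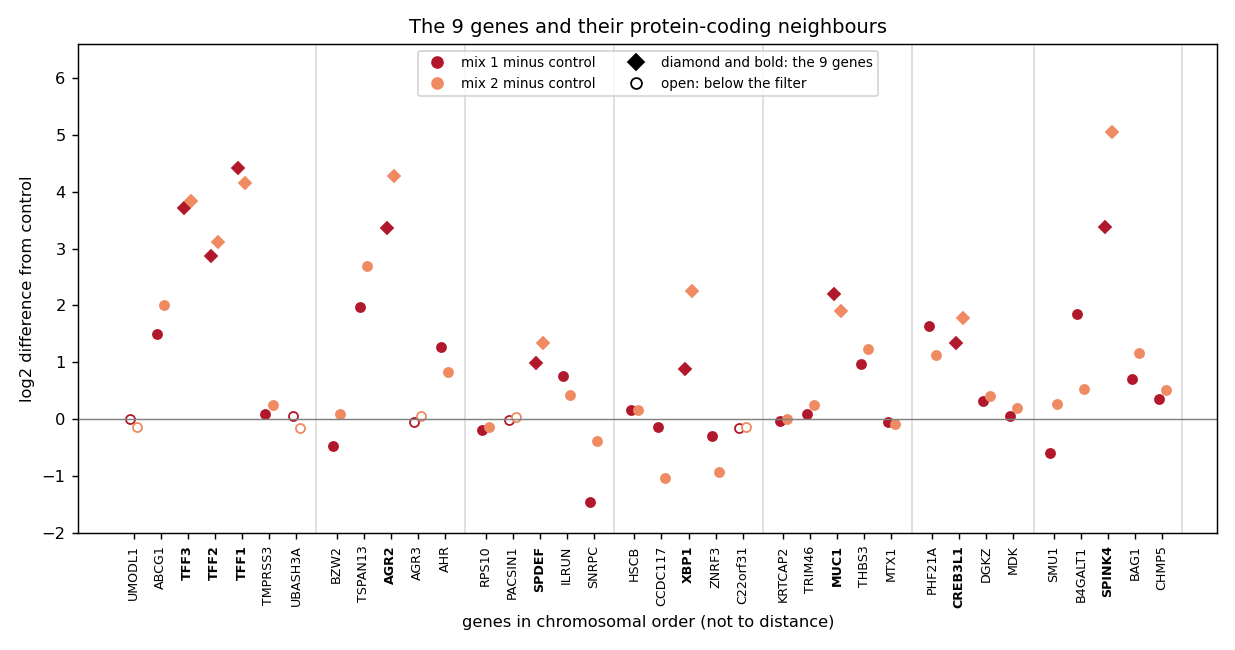
Differences from control (vertical axis, log2) of the 9 genes (diamonds, names in bold) and their protein-coding neighbours (circles; open where below the filter), in chromosomal order without distances, mix 1 to the left of mix 2. ABCG1, TSPAN13, PHF21A, THBS3 and BAG1 lie above 0 with both mixes, and SNRPC and ZNRF3 lie below 0.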

How the data were processed

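Per the submitters' processing notes, the authors made the deposited log2 expression values with RMA; which program and options were used is not given in the sources used here. RMA equalises the distribution of probe signals between arrays, which hides any change that all genes share. The table held 54675 probe sets on 12 arrays; 41097 had 1 gene symbol in GEO's platform annotation, 1801 several and 11777 none. Symbols were updated through the RefSeq gene table of GRCh38.p14.

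Probe sets with 1 symbol and a mean over 12 arrays above the 40th percentile (5.46) were kept. The brightest of them on average was used for each gene, giving 13225 genes. The 3 group means were fitted with limma (version 3.58.1, R 4.3.3; lmFit and eBayes, 9 residual degrees of freedom), two-sided, with Benjamini-Hochberg adjustment over all genes and a threshold of 0.05. Probe sets of the 9 genes were also fitted without a filter. Values of the markers, and of genes below the filter, came from a limma fit of each gene's brightest probe set without the filter. Errors are SE of the fit, and the number of arrays limits the precision. The replicates came from parallel cultures, so p-values measure the spread between those.

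The 9 genes, the related lists, the markers and the rule for named genes were chosen with earlier results of these data known. Named genes were the members, the targeted genes, up to 2 per direction and list called in the same direction with both mixes, the 5 profiles most like TFF1, AGR2 and SPINK4, the neighbours and the markers. S100P, FCGBP, ELF3, GATA3, ESR1, FOXA1, MUC5AC, MUC5B, MUC15, MUC16, CST2, CST3, SPINK13, TXNDC12, AGR3, DERL1, MBTPS1, MBTPS2, ERN1, HSPA5, HYOU1, SEC23A, GALNT10, GCNT1, C1GALT1 and TPD52L1 were added after their values were seen.

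Replicate letters were checked for pairing by the correlation of deviations from group means over genes. It was 0.25 to 0.41 between mix 1 and control for all 4 letters, so a replicate block was run as an alternative; the reported values come from the fit without it. It reached only 0.03 to 0.21 between mix 2 and control and -0.09 to 0.27 between the mixes. The script was tested on simulated data. Alternatives were a replicate block, other filters, arrays centred on their medians, averaged probe sets of a gene, no _s_at or _x_at probe sets, and each array left out.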

Additional observations from a re-analysis of the deposited data

Results flagged for a closer look

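In groups of 4 arrays, 279 groups of the named genes were examined for an array far from its 3 fellows, by its gap over the group's range; 18 stood out, while chance gives about 1 in 20. Of 54 groups of the 9 genes' probe sets 1 stood out: in SPDEF probe set 214404_x_at, control replicate A read 8.57 against 8.73 to 8.76 in the others (ratio 0.842). Mix 2 replicate D was the array apart for PDIA6 (0.933), CREB3L4 (0.947), CST1 (0.833), GATA3 (0.889), BZW2 (0.857), MTX1 (0.875) and PHF21A (0.849). Mix 2 replicate B was apart for TMX4 (0.857) and SMU1 (0.857). With mix 1, replicate D was apart for TMX2 (0.929) and PHF21A (0.895), and replicate C for TMX1 (0.838), ZNRF3 (0.833) and MTX1 (0.923). In control, replicate C was apart for ERN1 (0.917), C1GALT1 (0.935) and TMPRSS3 (0.833).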

How the results depend on the processing

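The 9 genes' differences were recomputed under 19 alternatives, 12 of which left out 1 array. Of 507 values obtained, 504 kept their direction and their side of the threshold, 0 changed direction and 3 no longer passed, all of them MUC1 between the mixes (given with that comparison). The genes were chosen on these values, so these counts are no sign of stability. Without _s_at and _x_at probe sets SPDEF and MUC1 had no value, which left 7 genes. Averaging the probe sets of a gene lowered XBP1 to 0.48 with mix 1 and 1.23 with mix 2, CREB3L1 to 0.65 and 0.99, and SPDEF to 0.59 and 0.75. It also brought AQP3 to 1.81 and 1.52, MYBL1 to -1.13 and -1.31, DERL1 to 0.28 and -0.99, PHF21A to 1.07 and 0.70, EHF to 0.60 and 0.68, HERPUD1 to 0.55 and 0.48, and C1GALT1 to -0.53 and 0.72. CST3 came to 2.52 with mix 1 and 0.58 with mix 2, in opposite directions from 1.76 and 1.69, and ABCG1 to 0.95 and 1.42. Other moved values were SSR3 (mix 2, -0.95), CCDC117 (mix 2, -0.63), ERN1 (mix 1, 0.56), B4GALT1 (mix 1, 0.94) and BAG1 (mix 1, 1.14). Without _s_at and _x_at probe sets B4GALT1 came to 1.03 and 1.07 and MIA3 with mix 2 to 1.45. Numbers of called genes stayed within 1.5 times for all genes, the 9 genes, the related lists together and the neighbours; single lists, with few genes each, moved more. Without _s_at and _x_at probe sets SMU1 with mix 1 turned to 0.035, against -0.60, and HERPUD1 with mix 2 to -0.02, against 0.99. With the mean of probe sets HSPA5 with mix 2 turned to -0.0062, against 0.46. MUC5AC was called higher with averaged probe sets (0.23 with mix 1 and 0.30 with mix 2). It was also called higher without control replicate A or B (0.42 and 0.71) or C (0.33 and 0.61). Each leave-out run picked the brightest probe set again. The values without a control array were near those of 214385_s_at on all arrays (0.42 and 0.71). Probe set 217182_at gave 0.06 and -0.16, so the shift came with a change of probe set. Without mix 2 replicate B, MUC5AC was called lower with mix 2 (-0.22). With the replicate block, 9194, 9380 and 7570 genes were called for mix 1, mix 2 and mix 2 minus mix 1, against 8878, 9070 and 7096 without it, and 9, 9 and 8 of the 9 genes as before; among named genes it changed only the TRIM46 call with mix 2 (0.25, limma adjusted p 0.0172). Centring arrays on their medians moved the median of all genes to -0.02 and 0.01. Depth is not defined for arrays: probe sets near the filter value, such as XBP1 242021_at, CREB3L1 213498_at and the mucins, carry little signal over background.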
